A study of Arabidopsis thaliana with 6 samples.

Results

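The genes described here form a stretch of chromosome 3 of the plant Arabidopsis thaliana that runs from VDAC1 (AT3G01280), the porin of the mitochondrial outer membrane, to AT3G03010, a peptidyl-tRNA hydrolase gene. The members are all gene IDs numbered from AT3G01280 to AT3G03010 except 5 (WRKY45, SRG3, LBD41, SKOR and GASA5), which gives 222 of the 29613 IDs in the count files. The stretch was picked out because its genes stood about 2-fold higher in roots of the 35S:NPC48 line than in wild type. That contrast chose the members, so every ratio between genotypes given for a member is a description, carries no test and supports nothing by itself.

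The study compared roots of Col-0 wild type with roots of a line that carries NPC48, a non-protein-coding RNA, behind 35S, a viral promoter active in most plant tissues, by polyA RNA-seq. Each genotype had 3 libraries with the letters A, B and D, which are replicates 1, 2 and 3. All plants were untreated and grew on medium with 500 µM phosphate under 16 h of light, with days of 24 °C, nights of 21 °C and a humidity of 33%. The labels do not say whether the line is a single transformant or whether its libraries are separate cultures. The p-values below therefore cover the spread among the 6 libraries, and that spread may be technical.

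Neighbouring genes of a plant chromosome mostly have unrelated functions, and a stretch of this length holds a cross-section of what a root cell does, from ribosomal proteins and mitochondrial import to wall synthesis and hormone signalling. The Arabidopsis genome also keeps the remains of an ancient duplication, so that many genes have a relative in a matching segment of another chromosome. Transcript counts do not measure the number of gene copies, which was not analysed here, and neither was the level of NPC48. In whole roots, fewer cells of a type and less RNA per cell cannot be told apart.

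The libraries held 9479418 to 23830604 counts, with the lowest total in 35S:NPC48 A. Of 12 root marker genes 12 were detected, with summed levels of 1140 to 1430 CPM (read counts relative to the TMM-scaled library total), and 7 of 7 shoot markers were detected at summed levels of 107 to 183 CPM. The summed shoot level was 107, 138 and 163 CPM in wild type A, B and D and 183, 164 and 108 CPM in 35S:NPC48, so it moved in opposite directions in letters A and D. Some single markers moved much further than the sum. CAB1 stood at 0.356, 0.758 and 21.5 CPM in wild type and at 27.8, 0.903 and 0.5 CPM in 35S:NPC48. RBCS1A stood at 0.623, 0.284 and 9.34 CPM and at 10.9, 1.96 and 0.5 CPM. GLDP1, a large part of the sum, hardly moved, with 51.6, 94.5 and 47.9 CPM and 49.5, 90.6 and 43.6 CPM. The part of the shoot markers in the results was not tested. Libraries B stood apart from A and D in both genotypes and deviated together across genes (correlation 0.83). The D libraries did so at 0.368, no more than the crossed pair of wild type A and 35S:NPC48 D at 0.385. Ratios were formed within a letter, and for A and D this pairing rests on the labels.

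Of the 222 members, 205 lie between VDAC1 and AT3G03010 in the reference annotation and 15 are annotated elsewhere on the chromosome, although their numbers fall in the range. The remaining 2, AT3G01472 and AT3G02468, have no entry in that annotation and no counts in any library. Enough counts for testing were found for 163 members, of which 160 lie inside, and for 19608 genes in all. Of the 160, 10 reached the filter level in fewer than 3 wild type libraries, and 3 of these (COL2, AT3G02480 and AT3G02500) reached it in none and so passed through 35S:NPC48 alone.

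Inside the stretch the ratio of 35S:NPC48 to wild type had a median over the 160 tested members of 2.01 in letter A, 2.00 in B and 1.90 in D. The median of the mean ratio was 1.96, with quartiles of 1.81 and 2.14, while the other 19440 tested genes had a median of 1.00 and quartiles of 0.921 and 1.09. A mean ratio from 1.5 to 2.5, called near 2-fold here, was found for 136 of the 160, against 2.78% of all tested genes. In all 3 letters 154 of the 160 were higher in 35S:NPC48, against 17.0% of all tested genes, and the groups did not overlap for 135, against 3.94%. Because these values come from the contrast that chose the genes, nothing is read from the counts.

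**Figure D1:**
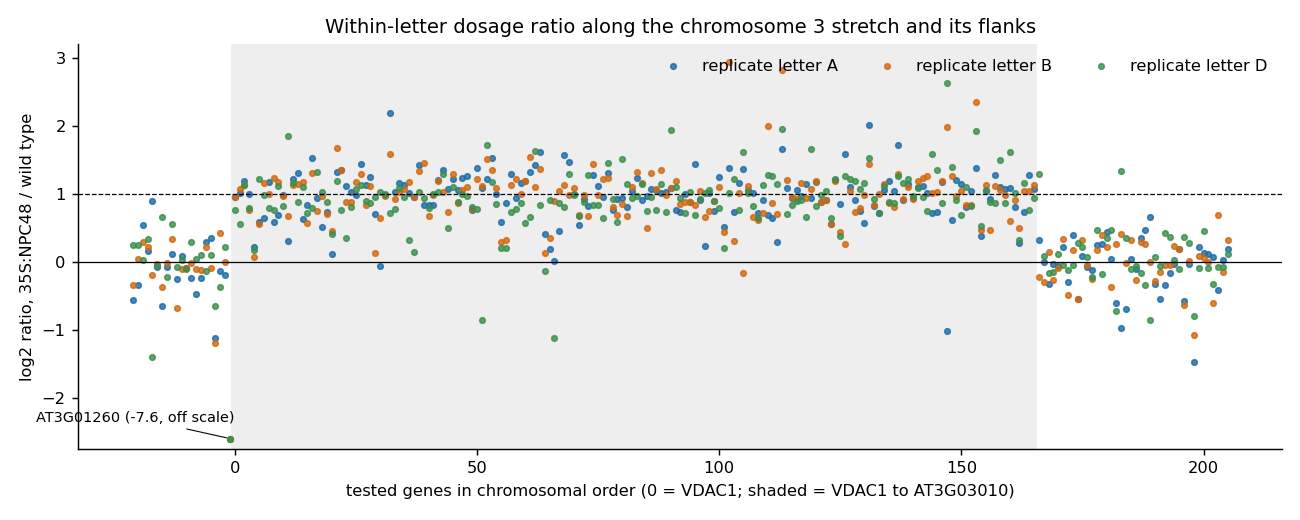
Log2 ratio of 35S:NPC48 to wild type within replicate letters A, B and D (y axis) for tested genes in chromosomal order (x axis), with the 166 tested genes from VDAC1 to AT3G03010 shaded, 21 before and 40 after. The points lie around 1, which is 2-fold, inside the shading and around 0 outside, and AT3G01260, just before VDAC1, is off the scale at -7.63.

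Both ends were read gene by gene. At the left end VDAC1 stood at 305, 387 and 323 CPM in wild type A, B and D and at 591, 752 and 545 CPM in 35S:NPC48, a ratio of 1.93, 1.94 and 1.69. The next member, HIR2, a membrane protein of the hypersensitive induced reaction family, stood at 596, 898 and 723 CPM and at 1200, 1880 and 1060 CPM. In both genes all 35S:NPC48 libraries were above all wild type libraries. The nearest tested gene before VDAC1, AT3G01260, went the other way, from 202, 65.7 and 144 CPM to 0.958, 0.251 and 0.55 CPM.

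At the right end the EF-hand calcium-binding gene AT3G03000 stood at 36.3, 29.2 and 52.6 CPM in wild type, against 87.7, 59.9 and 88.8 CPM in 35S:NPC48. AT3G03010, the last member, stood at 16.4, 13.0 and 16.3 CPM and at 34.6, 28.6 and 31.3 CPM. Groups did not overlap for either gene. The nearest tested gene after it, AT3G03020, had ratios of 1.25, 0.857 and 2.43, on both sides of 1. The 20 tested genes before VDAC1 had a median ratio of 0.97 and the 20 after AT3G03010 one of 1.01, with 0 and 0 of them near 2-fold.

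Along the stretch the level of the ratio hardly moved. In consecutive sixths of 26 or 27 tested members each, the median ratio was 1.90, 2.07, 1.96, 1.92, 1.93 and 2.04. The 5 genes of the range that are not members had mean ratios of 2.61 (WRKY45), 2.37 (SRG3), 1.88 (LBD41), 2.13 (SKOR) and 3.68 (GASA5).

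Position and number parted ways for the 15 noncoding IDs that carry a number of the range but are annotated elsewhere. Summed over the 15, counts were 104, 146 and 118 in wild type and 25, 74 and 75 in 35S:NPC48, and the CPM ratio was 0.575, 0.537 and 0.755. Only 3 of them had enough counts for testing. U1.6 (AT3G01715), a spliceosomal U1 snRNA, stood at 0.801, 0.711 and 1.22 CPM in wild type, against 0.106, 0.201 and 0.35 CPM in 35S:NPC48, with no overlap. The long noncoding RNAs AT3G01795 and AT3G02365 had mean ratios of 0.89 and 0.715, with overlapping groups. U1 snRNA carries no poly(A) tail, and each of the 3 IDs overlaps another annotated gene, so their counts are uncertain.

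The 45 members inside that were too low to test held 23 to 51 counts per library in sum, with a CPM ratio of 3.43, 1.54 and 1.30. The 2 with the highest mean CPM among them were AT3G01572, with 5, 10 and 5 counts in wild type, against 2, 1 and 10 in 35S:NPC48, and AT3G01660, with 2, 1 and 5 and 8, 3 and 2 counts. At this depth no ratio could be read from a single one of them. Genes known from flowers or leaves were in this group, such as SEP2, a floral MADS-box factor, with 0 to 1 counts per library, and CA1, a chloroplast carbonic anhydrase, with 0 to 5 counts. The homeobox gene HB-1 was listed at 0 in all 6 libraries and the polyamine gene SAMDC at 1 to 4 counts. Beside them the IDs AT3G01472 and AT3G02468 were also at 0, and how reads were assigned among these IDs is not given in the sources used here.

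How closely the members kept to 2-fold went with their level. When the 160 were ordered by mean CPM, the highest 53 (53.4 to 1930 CPM) had a median ratio of 1.99 and 52 of them were near 2-fold. The middle 53 (12.7 to 52.1 CPM) had a median of 1.96 with 48 near 2-fold. The lowest 54 (0.534 to 12.7 CPM) had a median of 1.91 with 36 near 2-fold. The median SD of the log2 ratio over the 3 letters was 0.13, 0.17 and 0.30 in the highest, middle and lowest group. The center of the distribution thus stayed between 1.91 and 1.99, and its spread was widest where counts were fewest. The ratios include a prior count of 2, which pulls those of low counts towards 1. For low members they therefore differ from the quotient of the CPM given.

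**Figure D2:**
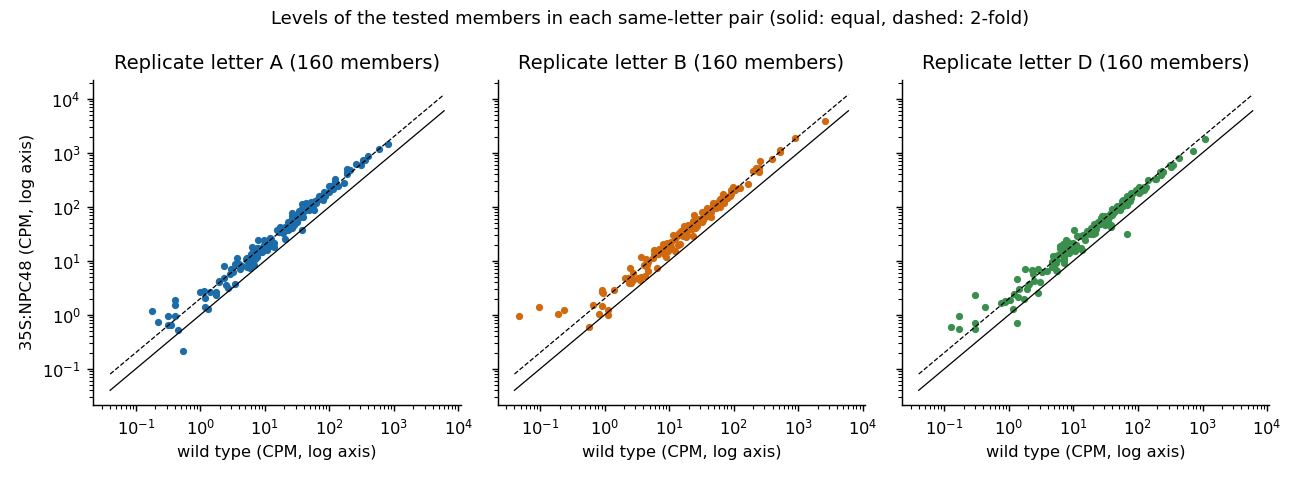
Level in wild type (x axis, CPM, log axis) against level in 35S:NPC48 (y axis, CPM, log axis) for the 160 tested members inside the stretch, 1 panel for each replicate letter, with the solid line at equal levels and the dashed line at 2-fold. In each letter the points follow the dashed line over the whole range of levels and scatter more at the low end.

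Per kilobase of exon the highest mean level was that of DOX1 (AT3G01420), an alpha-dioxygenase that oxidises fatty acids, at 826 CPM per kb. HIR2 followed with 637, the ribosomal protein S19 gene AT3G02080 with 466 and RGP1 with 391 CPM per kb. DOX1 stood at 820, 2590 and 1080 CPM in wild type, against 1460, 3850 and 1780 CPM in 35S:NPC48. Its groups overlapped, since wild type B was above 35S:NPC48 A and D, yet its within-letter ratios of 1.78, 1.48 and 1.65 were close to each other. Their mean of 1.63 was the lowest of the 10 most abundant members, the others of which lay between 1.83 and 2.26.

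Ribosome and translation genes had 9 of 9 tested members near 2-fold, with a median of 2.14 and a range of 1.87 to 2.26. AT3G02080 stood at 257, 260 and 247 CPM in wild type, against 621, 702 and 440 CPM in 35S:NPC48. AT3G02560, the ribosomal protein S7 gene, stood at 210, 200 and 189 CPM and at 472, 454 and 333 CPM. The class also covers the organelle: AT3G01740, a mitochondrial ribosomal protein L37 gene, had a mean ratio of 2.21, and the ribosome recycling factor AT3G01800 one of 2.15. AT3G02760, a class II aminoacyl-tRNA synthetase gene, had the smallest spread over letters, with ratios of 1.91, 1.89 and 1.95. Groups did not overlap for AT3G02080, AT3G02560 or AT3G02760.

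Transport and membrane traffic genes were near 2-fold in 10 of 10 cases, with a median of 1.87 and a range of 1.70 to 2.25. VMA10 (AT3G01390), subunit G of the vacuolar proton pump, stood at 81.4, 96.6 and 104 CPM in wild type, against 189, 212 and 232 CPM in 35S:NPC48. BIG (AT3G02260), a giant protein needed for polar auxin transport, stood at 169, 125 and 122 CPM and at 279, 226 and 235 CPM. TPLATE, which acts in endocytosis, and KUP3, a potassium transporter, had mean ratios of 1.91 and 2.02. The lowest ratio of the class, 1.70, was that of the amino acid transporter family gene AT3G01760, with 2.09, 1.66 and 1.41 in A, B and D.

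DNA replication, repair and cell division genes were few, 5 tested and 5 near 2-fold, with a median of 2.03. SP1L3 (AT3G02180), a SPIRAL1-like gene of the microtubule-associated kind, stood at 44.0, 50.4 and 41.8 CPM in wild type, against 90.3, 108 and 80.0 CPM in 35S:NPC48. RPA32B, a subunit of the single-strand DNA binding protein RPA, had ratios of 2.15, 2.07 and 2.83. The microtubule-associated protein gene AT3G02930 had ratios of 2.10, 1.98 and 1.82, and NBS1, of the double-strand break repair complex, had a mean ratio of 1.82.

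RNA processing and organelle RNA genes were near 2-fold in 10 of 11 cases, with a median of 1.89. DRH1 (AT3G01540), a DEAD box RNA helicase, stood at 334, 251 and 316 CPM in wild type, against 728, 446 and 585 CPM in 35S:NPC48. THO7 (AT3G02950), of the THO complex that couples transcription to mRNA export, stood at 29.0, 29.9 and 26.3 CPM and at 50.6, 56.1 and 52.9 CPM. AT3G02710, an armadillo repeat gene, had a mean ratio of 1.97. The exception was AT3G02370, a tRNA-splicing endonuclease subunit gene, which stood at 6.05, 3.65 and 5.60 CPM in wild type, against 8.62, 4.96 and 6.45 CPM in 35S:NPC48, with overlapping groups. Its ratios were 1.42, 1.35 and 1.15. It overlaps COL2 in the annotation, and reads from overlapping genes cannot be told apart because the strand setting is not given in the sources used here.

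Cell wall and extracellular genes had the lowest class median, 1.79 over 5 tested members, of which 4 were near 2-fold. RGP1 (AT3G02230), a UDP-arabinose mutase that supplies wall polymers, stood at 354, 529 and 350 CPM in wild type, against 737, 1110 and 596 CPM in 35S:NPC48. GAUT9 (AT3G02350), of the galacturonosyltransferase family linked to pectin, stood at 79.4, 89.1 and 68.1 CPM and at 133, 165 and 127 CPM. AT3G01720, a peptidyl serine galactosyltransferase that modifies extensins, had ratios of 1.79, 1.6 and 1.73. Above the window by a small margin was AT3G02120, a hydroxyproline-rich glycoprotein gene, at 2.51. Medians of the classes with 5 or more tested members ran from 1.79 to 2.14, about as far apart as the quartiles of single members, and no difference between classes was tested.

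Genes of chaperones, protein turnover and protein modification were near 2-fold in 12 of 16 cases, with a median of 1.93. MPPBETA (AT3G02090), the beta subunit of the peptidase that removes targeting peptides in mitochondria, stood at 399, 531 and 440 CPM in wild type, against 863, 1050 and 785 CPM in 35S:NPC48. AT3G02530, a subunit of the CCT chaperonin, had a mean ratio of 1.94, and the PCI domain gene AT3G02200 one of 2.10. The 2 genes of the class above 2.5 both encode plastid proteins, but the members were not sorted by plastid location here. CYP38 (AT3G01480), a cyclophilin for photosystem assembly, stood at 6.45, 3.69 and 5.89 CPM and at 16.3, 12 and 13.5 CPM. TRXF1 (AT3G02730), a chloroplast f-type thioredoxin, stood at 2.36, 4.41 and 2.36 CPM and at 7.98, 10.9 and 5.80 CPM. In both, all 35S:NPC48 libraries were above all wild type libraries, with mean ratios of 2.62 and 2.68, and both overlap another annotated gene. Summed shoot markers were higher in 35S:NPC48 in letters A and B and lower in D, as given above, and the ratio of CYP38 was 2.5, 3.18 and 2.27 in A, B and D. That of TRXF1 was 3.29, 2.44 and 2.40. The part of the shoot markers in both was not tested. Below 1.5 were ROXY1 (1.40), a glutaredoxin for petal development that overlaps ACR6 in the annotation, and AT3G02890, a RING/FYVE/PHD zinc finger gene.

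Metabolic genes made up the largest class with a known function, 30 tested and 25 near 2-fold, with a median of 1.97. IPP2 (AT3G02780), which isomerises isopentenyl diphosphate for isoprenoid synthesis, stood at 188, 225 and 235 CPM in wild type, against 408, 529 and 457 CPM in 35S:NPC48. AT3G02360, a 6-phosphogluconate dehydrogenase gene of the pentose phosphate pathway, stood at 189, 246 and 228 CPM and at 447, 526 and 394 CPM. Sterol desaturase STE1, sulfite oxidase SOX and glucuronokinase GLCAK had mean ratios of 1.93, 2.07 and 2.13. The acyl carrier protein desaturases, which sit side by side, were not alike: AT3G02630 had ratios of 2.15, 2.06 and 2.32, AT3G02620 had 3.00, 1.19 and 2.40, and AT3G02610 had 1.79, 1.35 and 1.30. The proteins of AT3G02610 and AT3G02620 are 92.0% identical, and how reads shared by such copies were assigned is not given in the sources used here. Besides AT3G02610 at 1.47, the class fell below 1.5 for AK3, for CYP94B2 (1.37), a cytochrome P450 of the jasmonate-oxidising family, and for AT3G02590, a fatty acid hydroxylase family gene just under the limit.

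Signalling genes were near 2-fold in 12 of 14 cases, with a median of 1.95. GRF7 (AT3G02520), a 14-3-3 protein, was among the steadiest members, at 100, 105 and 103 CPM in wild type, against 191, 205 and 183 CPM in 35S:NPC48. AT3G02880, a leucine-rich repeat kinase gene, stood at 119, 123 and 131 CPM and at 245, 220 and 231 CPM, again without overlap. AT3G01310, annotated in the phosphoglycerate mutase-like family, had ratios of 1.99, 1.70 and 1.74. RGF7, a root meristem growth factor peptide gene, had a mean ratio of 2.25. LYK2 (AT3G01840), a LysM receptor-like kinase, was above the window: it stood at 2.94, 2.46 and 1.35 CPM in wild type, against 6.92, 7.22 and 4.65 CPM in 35S:NPC48, with no overlap and a mean ratio of 2.79. The EF-hand gene AT3G01830, which overlaps LYK2, was below it at 1.36, with 2.11, 2.16 and 0.554 in the letters.

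Transcription and chromatin genes were near 2-fold in 8 of 12 cases, with 2 above and 2 below the window, around a median of 1.98. BET10 (AT3G01770), a bromodomain protein, stood at 102, 48.1 and 82.3 CPM in wild type, against 238, 118 and 177 CPM in 35S:NPC48. SNL1, a SIN3-like corepressor, had ratios of 1.5, 1.47 and 2.32, and MBD9, a methyl-CpG-binding domain protein, had 1.67, 1.62 and 1.83. HSFA1E, a master regulator of the heat response, had a mean ratio of 1.96 and MYB107, a suberin regulator known from seeds, one of 2.13. NAC044 (AT3G01600), a factor of the DNA damage response, was above the window at 0.178, 0.90 and 0.295 CPM in wild type, against 1.17, 2.91 and 0.55 CPM in 35S:NPC48. In wild type A and D it lay below the filter level, so it passed mainly through 35S:NPC48, which favours a high ratio. COL2, a CONSTANS-like gene, had a mean ratio of 3.42 at under 1 CPM. It passed the filter through 35S:NPC48 alone, which favours a high ratio, so nothing is read from its place above the window. The 4 departures had between 0.204 and 13.3 CPM in wild type on average. The SD of their log2 ratio over the letters was 0.74 for NAC044 and 1.02 for COL2, both above the window, and 0.20 for AT3G01890 and 0.12 for MCC1, both below it.

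**Figure D3:**
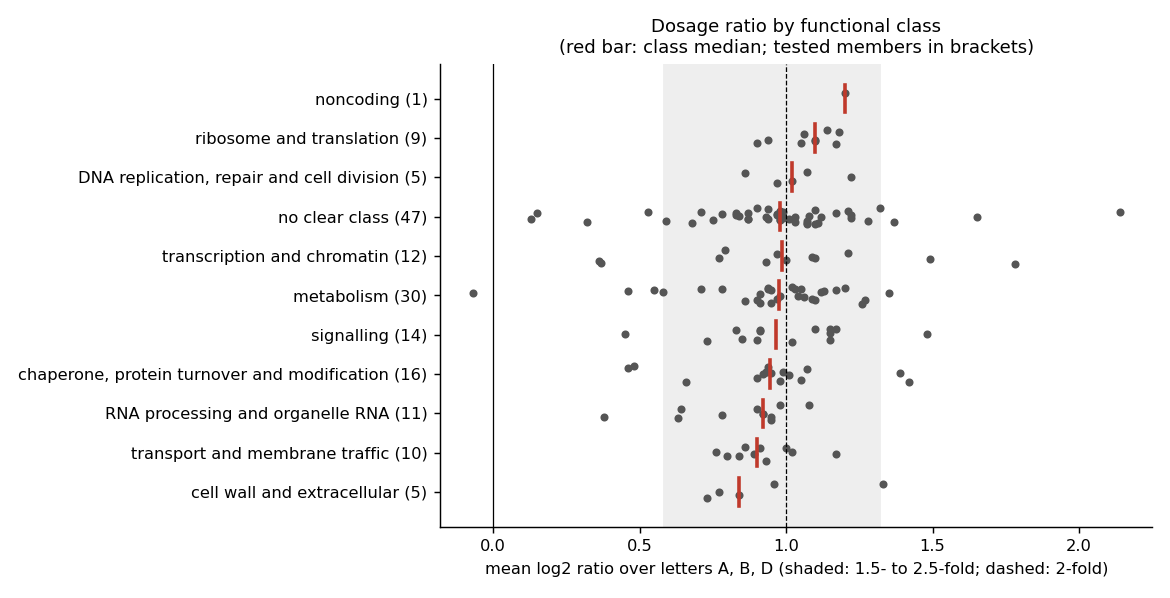
Mean log2 ratio over replicate letters A, B and D (x axis) of each tested member inside the stretch, by functional class (y axis, number of tested members in brackets), with the class median as a red bar. The shaded band marks 1.5- to 2.5-fold and the dashed line 2-fold. Class medians of the classes with 5 or more tested members lie between 1.79 and 2.14.

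The 47 tested members without a clear class had a median of 1.98 with 40 near 2-fold, close to the whole stretch. AT3G01520, of an adenine nucleotide alpha hydrolase-like family, stood at 123, 96.6 and 145 CPM in wild type, against 331, 236 and 316 CPM in 35S:NPC48. AT3G02910, of the AIG2-like family, had ratios of 2.42, 2.17 and 1.81. The phloem filament genes SEOa and SEOR1, which form the protein bodies of sieve elements, shared a lower value in letter D: SEOa had ratios of 2.02, 2.25 and 1.24 and SEOR1 of 1.93, 1.92 and 1.10. The single tested noncoding member inside, AT3G02832, had ratios of 0.496, 3.95 and 6.17 at under 1 CPM in wild type.

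Outside the window lay 24 tested members, 14 below 1.5 and 10 above 2.5, and without both D libraries 19 were below and 17 above. In all 3 letters 7 stayed below 1.5 (ACR6, AT3G01311, AT3G01475, AT3G01890, MCC1, AT3G02370 and AT3G02890) and 2 stayed above 2.5 (AT3G02677 and AT3G02500), while 94 stayed inside the window. A mean ratio above 2.5 was found in 0.178% of all tested genes. At the lower limit AT3G01570 lay just inside at 1.51 and AT3G02590 just outside, with 1.47, 1.47 and 1.55 in the letters. At the upper limit AT3G02480 lay just inside at 2.5 and AT3G02120 just outside at 2.51. Of the 160 members, 60 overlap another annotated gene, and so did 7 of the 14 below and 6 of the 10 above.

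AK3 (AT3G02020), an aspartate kinase of the pathway to lysine, threonine and methionine, had the lowest mean ratio, 0.951. It stood at 37.2, 78.3 and 68.4 CPM in wild type, against 37.5, 146 and 31.2 CPM in 35S:NPC48. Its letters went apart, with 1.01 in A, 1.86 in B and 0.458 in D, so its mean describes none of them. It was the only one of the 53 most abundant members outside the window. AK3 overlaps AT3G02010, a pentatricopeptide repeat gene with ratios of 1.37, 2.05 and 1.81.

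ACR6 (AT3G01990), an ACT domain protein, overlapped between the genotypes, with 1.73, 6.58 and 2.82 CPM in wild type, against 2.34, 7.22 and 2.55 CPM in 35S:NPC48. Its ratios were 1.33, 1.10 and 0.908, and B was the highest library of each genotype. MCC1 (AT3G02980), a histone acetyltransferase known from the control of meiotic crossovers, also peaked in B, at 5.96, 13.6 and 7.20 CPM and at 7.24, 19.4 and 9.05 CPM. Its ratios of 1.21, 1.42 and 1.25 lay close together. Groups overlapped for both genes. In the annotation ACR6 overlaps ROXY1, which was also below 1.5 with a mean ratio of 1.40, so the ratios of this pair are uncertain.

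AT3G01890 and AT3G02890 had low ratios. The SWIB/MDM2 domain gene AT3G01890, a relative of SWI/SNF subunits, stood at 14, 12.2 and 13.8 CPM in wild type, against 21.0, 14.9 and 15.9 CPM in 35S:NPC48, with no overlap and a mean ratio of 1.28. Its ratios were 1.5, 1.22 and 1.15 in A, B and D, so letter A lay at the limit. AT3G02890 stood at 14.1, 14.9 and 10.5 CPM and at 18.4, 20.7 and 15.2 CPM, also with no overlap, and had ratios of 1.30, 1.38 and 1.45. Neither overlaps another annotated gene. AT3G01475, of unknown function, had ratios of 1.09, 1.36 and 1.33 and overlaps HB-1.

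Of the high departures, AT3G02677, of unknown function, stood at 0.40, 0.90 and 0.421 CPM in wild type, against 1.92, 2.61 and 1.40 CPM in 35S:NPC48. Its ratios were 4.01, 2.70 and 2.87, and its groups did not overlap. In wild type A and D it lay below the filter level, so it passed mainly through 35S:NPC48, which favours a high ratio. AT3G02500 had the highest mean ratio, 4.42, from 0.40, 0.0474 and 0.168 CPM to 1.49, 0.953 and 0.95 CPM. In counts these were 9, 1 and 4 against 14, 19 and 19, which leaves the size of its ratio poorly known. AT3G02500 also passed the filter through 35S:NPC48 alone. AT3G02245 at 2.58 and the aldolase-type TIM barrel gene AT3G01850 at 2.55 were just above the limit.

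**Figure D4:**
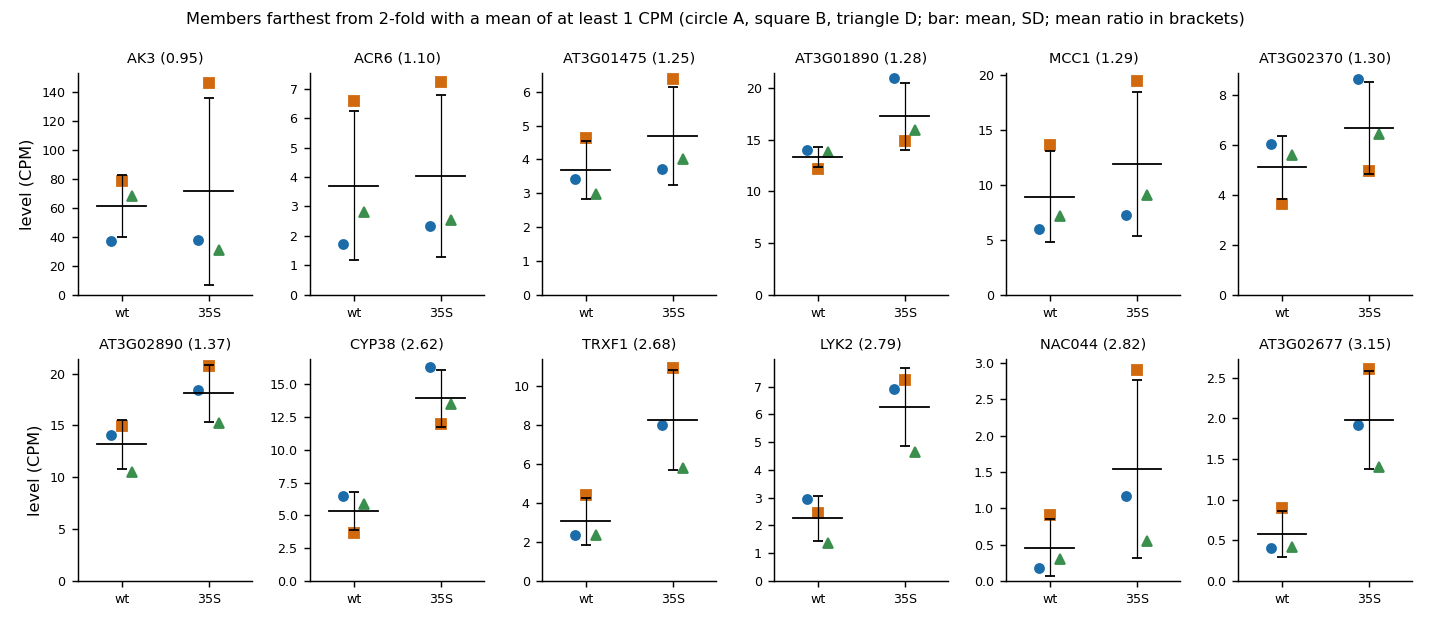
Level in CPM (y axis, from 0) in each library of wild type (wt) and 35S:NPC48 (35S) for the 12 members with a mean of at least 1 CPM that had the 5 lowest or 5 highest mean ratios or left 1.5- to 2.5-fold in every letter. Circles, squares and triangles are letters A, B and D, the horizontal bar is the mean, the error bar the SD (n = 3) and the number in brackets the mean ratio, which runs from 0.951 for AK3 to 3.15 for AT3G02677.

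The replicate letters give a measure that did not choose the members. In a model with genotype and letter, 40 of the 160 tested members differed between letters (edgeR quasi-likelihood F test, adjusted p under 0.05 over 19608 genes), against 21.0% of all tested genes, so that the stretch was not far from the background. Letter B was the highest for 24 of them and the lowest for 15. The mean ratio between genotypes was near 2-fold for 32 of the 40. The count rests on the B and D libraries: without wild type B or 35S:NPC48 B it was 17 and 9, against 10.2% and 5.01% of all tested genes. Without wild type D or 35S:NPC48 D it was 91 and 80, against 46.0% and 45.9%.

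VTC4 (AT3G02870), an inositol and galactose phosphate phosphatase of ascorbate synthesis, had the smallest p, with 12, 103 and 15.2 CPM in wild type A, B and D. In 35S:NPC48 it stood at 26.5, 211 and 24.5 CPM. Letter B was above A by a log2 difference of 3.05 (edgeR adjusted p = 1.04e-05), and the ratio between genotypes was 2.20, 2.05 and 1.61 across this range. DOX1 was higher in B than in A by 1.53 on the log2 scale (edgeR adjusted p = 0.000731).

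Of the other genes with the smallest p, AT3G01690, of the alpha/beta hydrolase family, was lowest in B, with 188, 69.3 and 220 CPM in wild type, against 505, 175 and 448 CPM in 35S:NPC48, a log2 difference of B to A of -1.49 (edgeR adjusted p = 0.000575). AT3G02910 stood at 121, 66.9 and 181 CPM and at 292, 145 and 329 CPM, also lowest in B (log2 difference -0.93, edgeR adjusted p = 0.00156). AT3G01730, of unknown function, stood at 0.311, 4.12 and 1.18 CPM in wild type A, B and D, and at 0.639, 8.22 and 2.45 CPM in 35S:NPC48. Letter B was above A by a log2 difference of 3.69, more than for VTC4 but at a lower level. Its ratios were 1.79, 1.97 and 1.99, and its letters differed with an edgeR adjusted p of 0.000733. In these 5 genes the order of the letters was led by B at one end in both genotypes, and the ratio between genotypes had an SD of 0.08 to 0.24 on the log2 scale.

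In the comparison of the genotypes over all genes, edgeR called 0 of the 160 members without a replicate block, where it called 0.0102% of all tested genes. At an unadjusted p under 0.05 there were 136, where 3.54% of all tested genes passed, and DESeq2 called 95, where it called 0.701% of all genes. With the replicate number as a block it called 117 members higher and 0 lower, where it called 1.21% of all tested genes, 0.841% higher and 0.367% lower. As the contrast chose the members, these counts are not a result about them.

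The same comparison can be read for relatives of the members elsewhere in the genome, which were chosen by sequence. Of 198 members with a protein, 143 had a relative outside the stretch by blastp, 89 of these on chromosome 5 and 71 in its run of IDs numbered AT5G13 to AT5G17. The 140 distinct relatives included 122 tested ones, with a median ratio of 0.998, beside 1.00 over all tested genes. Of these, 60 had a positive and 62 a negative log2 fold change, and edgeR's quasi-likelihood test called 0 of them with or without the replicate block. At an unadjusted p under 0.05 there was 1 (AT3G55290, log2 fold change 0.78 ± 0.24 SE, adjusted p = 0.757), and DESeq2 called 0. With the block 9 relatives had an unadjusted p under 0.05, where 11.2% of all tested genes did. With the block and both D libraries left out, 7 relatives were called higher and 6 lower, where 9.89% of all tested genes were called, 5.48% higher and 4.41% lower. These shares are near the background and are not a result about the relatives. Without both A libraries 1 relative was called lower, where 0.268% of all tested genes were. A mean ratio from 1.5 to 2.5 was found for 4 of the 122, where 2.78% of all tested genes and 406 of the 19440 outside the stretch had one. This too is near the background and not a result about the relatives.

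The closest relatives show this gene by gene. AT5G15520 shares 96.5% of its protein residues with the S19 protein AT3G02080, and stood at 30.6, 35.2 and 28.9 CPM in wild type, against 33.0, 41.8 and 26.6 CPM in 35S:NPC48. AT5G16070, the other CCT6-type chaperonin, is 96.3% identical to AT3G02530 and stood at 83.4, 91.8 and 72.3 CPM and at 74.1, 91.6 and 62.4 CPM. RGP2, 94.7% identical to RGP1, stood at 377, 670 and 388 CPM and at 414, 674 and 327 CPM. Groups overlapped for all 3. AT5G16450 (95.2% identical to AT3G02770) and AT1G63290 (92.9% identical to AT3G01850) had mean ratios of 1.09 and 1.13, while their members had 2.18 and 2.55. Log2 fold changes of the 5 relatives lay between -0.12 and 0.16 with SE of 0.14 to 0.34, and edgeR's adjusted p was 1.00 for each. With the block and without both D libraries AT1G63290 was among the relatives called higher. How reads shared by near-identical copies were assigned is not given in the sources used here.

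**Figure D5:**
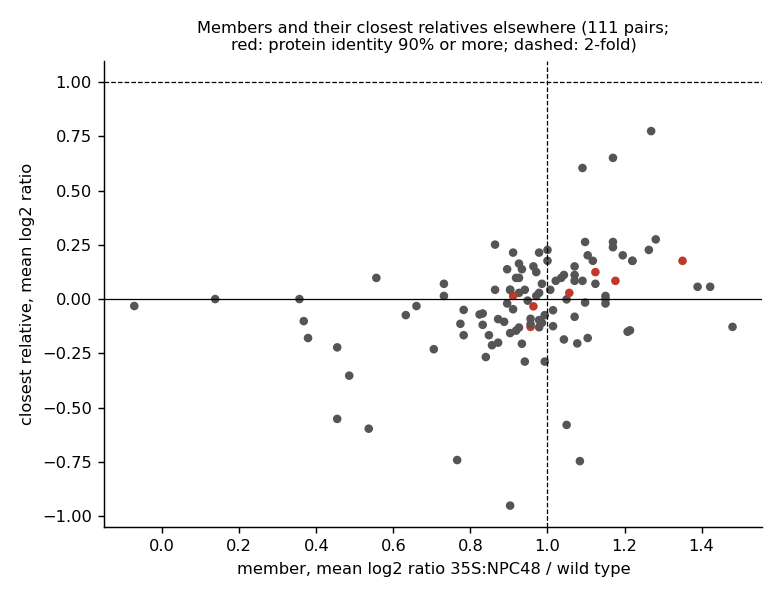
Mean log2 ratio of 35S:NPC48 to wild type of a member (x axis) against that of its closest relative outside the stretch (y axis) for the 111 pairs with both genes tested, with dashed lines at 2-fold and pairs of at least 90% protein identity in red. Members gather around 1 on the x axis and their relatives around 0 on the y axis.

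Listed subunits of complexes that hold a member, but encoded elsewhere, were also near their wild type level. Some of them, such as MPPalpha1, AT5G16070 and THO7A, are also among the relatives above, so the partners and relatives are not separate sets. Of 66 listed partners 65 were tested, with a median ratio of 0.967, 24 positive and 41 negative log2 fold changes, and 0 called by edgeR with or without the block, by DESeq2, or without the block at an unadjusted p under 0.05. With the block 3 had an unadjusted p under 0.05, where 11.2% of all tested genes did. With the block and both D libraries left out, 2 partners were called higher and 3 lower, again near the 5.48% and 4.41% of all tested genes. VHA-A, the catalytic subunit of the vacuolar proton pump whose subunit G is VMA10, stood at 583, 827 and 614 CPM in wild type, against 573, 687 and 566 CPM in 35S:NPC48. The 21 tested pump subunits had a median ratio of 0.986. MPPalpha1, the partner of MPPBETA, stood at 229, 288 and 230 CPM and at 192, 265 and 228 CPM. CCT2, of the chaperonin that holds AT3G02530, stood at 222, 239 and 187 CPM and at 216, 224 and 173 CPM. In these 3 genes the groups overlapped.

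The same held for the other complexes by their most abundant subunit. TWD40-1, which works with TPLATE, had a mean ratio of 0.91, RAD50, which works with NBS1, one of 0.871, and RPA3B, which works with RPA32B, one of 0.885. BRM, the ATPase of SWI/SNF remodelling, had 0.957, and THO2, which works with THO7, had 1.01. The member listed with BRM, AT3G01890, was itself below the window, with a mean ratio of 1.28. The lowest partner, THO7A, a second THO7 gene, stood at 2.85, 2.32 and 2.95 CPM in wild type, against 0.532, 2.21 and 1.95 CPM in 35S:NPC48, named after its values were seen. Its log2 fold change was -0.73 ± 0.45 (SE) with an edgeR adjusted p of 1.00, while THO7 itself had a mean ratio of 1.87.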

How the data were processed

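The authors deposited 1 table of raw, unscaled counts per gene for each of 6 polyA libraries. The submitters' processing notes name the build TAIR10 and the tools Trimmomatic 0.36, STAR 2.5.2b, Subread 1.6.5 and featureCounts. The setting for strand, and that for multiply mapped reads, is not given in the sources used here. Names, gene order, exon lengths and overlaps came from the reference TAIR10.1 annotation, which matched 28494 of 29613 IDs. As the builds differ in version, no coordinates or sequences are given.

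Genes were filtered by filterByExpr (minimum count 10, minimum total 15), scaled by TMM and tested with edgeR 4.0.16 (quasi-likelihood F test, genotype alone, Benjamini-Hochberg adjusted p under 0.05) in R 4.3.3. The letters were tested with both letter coefficients beside genotype. Ratios are the mean within-letter difference of log2 CPM (prior count 2), written as a fold. Alternatives used DESeq2 1.42.0, other scaling and filters, left-out libraries and a replicate block. Equal replicate numbers, which come from the labels, were checked to deviate together across genes (correlations 0.528, 0.83 and 0.368), so they were read as pairs. Crossed pairs of replicates 1 and 3 gave 0.385 and 0.341, so those were hardly told apart. Counts of libraries within a group differed by 16.28 to 96.12 chi-square units per degree of freedom, so no library was taken as a copy. The fits were also run on simulated counts, with the same dispersion for all genes and a letter effect in 200 genes only. In the real data 21.0% of tested genes differed between letters, so this run cannot show how the fits behave here.

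The members, lists and class keywords were chosen with earlier results of these data known. Named members were the 2 outermost at each end, the 10 most abundant, the 5 highest and lowest ratios at 1 CPM or more and those outside the window in every letter. They also include the 3 most abundant per class, the 5 with the smallest letter p and the 2 most abundant untested ones. Other members were named after their values were seen. Keywords in the annotation set the classes, and the gaps were filled by hand from descriptions after counts had been seen. Relatives were the best blastp hit (BLAST 2.17.0) with E below 1e-30 over at least 50% of the member's protein, with proteins translated from the TAIR10.1 genome and annotation because no protein table was used. The 5 named have the highest identity, a reading of "closest" chosen after values were seen.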

Additional observations from a re-analysis of the deposited data

How the results depend on the processing

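The alternatives run were other scaling, prior count 0.5, another filter, each letter left out and group means in place of pairs. Under them the median ratio of the members changed by less than the spread between letters. The number near 2-fold changed by less than 1.5 times. With 136 of 160 members near 2-fold it could not rise that far, so this limit is a weak check. The numbers below and above the window moved more without both D libraries, as given above. All 384 values of named members stayed within their own spread over letters. Leaving out a letter cannot move a mean by more than that spread, and the other filter leaves it unchanged. For those settings the outcome was therefore fixed and says nothing. Of the 384 values, 3 moved by over 1.5 times, all for AT3G02832. Its ratio of 2.30 became 4.92 without replicate 1, 1.40 without replicate 3 and 3.56 from group means. The genotype comparison called 2 of all genes without a block, 237 with the replicate block and 151 with DESeq2. Leaving out 1 library gave 0 to 2 calls, and the block without replicate 1, 2 or 3 gave 191, 118 and 1955. Members called numbered 0, 117 with the block and 95 with DESeq2, and 74 to 139 with the block and a replicate left out. Relatives called numbered 0 to 13 with a replicate left out, 13 with the block without replicate 3, and their median log2 fold change was 0.00, -0.02 without the filter and -0.08 to 0.06 with a library left out. Partners called numbered 0 to 5, and their median was -0.05, with -0.10 to 0.00. Letter calls ran from 993 to 9157 over all genes (4111 with all libraries) and from 9 to 91 among members (40). The fewest came without 35S:NPC48 B, and the most over all genes without 35S:NPC48 D. The cause was not tested. With libraries left out, log2 fold changes changed sign for AT5G15520 (-0.10 to 0.24), AT5G16070 (-0.29 to 0.00), RGP2 (-0.38 to 0.30, and 0.07 with the block without replicate 3), CCT2 (-0.18 to 0.02), BRM (-0.24 to 0.08), THO2 (-0.08 to 0.15, and -0.04 with that block), VHA-A (-0.25 to 0.02) and RPA3B (-0.41 to 0.11), none of them called.

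Depth limits the low members most, and 35S:NPC48 A is the shallowest library. Ratios of members that share reads with an overlapping or near-identical gene are uncertain. The pairing of A and D rests on the labels.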
